A study of Danio rerio with 12 samples.

Results

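A set of 9 genes of the zebrafish retina and pineal organ was followed across the arrays, of 10915 named genes that the arrays measured. They are the homeobox genes rx1, rx2, pax6a, vsx1, crx and otx5, the proneural gene atoh7, and the arylalkylamine N-acetyltransferase genes aanat1 and aanat2. They were chosen by name, with earlier results of these data known. Each was read from the probe with the highest mean intensity among the probes whose accession belongs to it. All 9 genes were found, with 17 probes between them.

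RNA was measured in 12 pools of whole zebrafish embryos, 1 pool per single-colour Agilent array, with 3 arrays in each of 4 groups. Embryos at the single-cell stage received 1 nL holding 4.4 ng of a mispair control oligonucleotide (MP) or of a morpholino (MO) that blocks the GR mRNA, which encodes the glucocorticoid receptor, from being translated, and pools of 25 were frozen at 24 or 36 hours post fertilization (hpf). The 3 pools of a group came from separate breeding events, and the labels name no strain. The morpholino lowers the protein for a limited time and is no mutation, and a pool of whole embryos holds the eye and the pineal organ as a small part of all its RNA, so that fewer cells of a type and less RNA per cell cannot be told apart. Because it is the agent that separates the groups, its sequence is shown 5′ to 3′, with capitals on bases 19 to 21, which are complementary to the start codon:
GR morpholino: ctccagtcctccttgatcCATtttg
The labels print that sequence for the mispair control as well, although they describe changed bases in it, so no sequence is given for the control.

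The vertebrate retina and pineal organ both arise from the forebrain and both hold photoreceptors. The rx and pax6 genes mark the field of cells that becomes the eye. The optic cup that follows makes its neurons in a fixed order, with ganglion cells at the start, under atoh7, and bipolar cells, which use vsx1, near the end. The pineal organ of fish senses light directly and makes melatonin at night, and Aanat enzymes catalyse the step before the last of that synthesis.

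Values are log2 intensities scaled on each array to the median of the 19114 probes that exceeded 50 throughout, so a change is relative to those probes. Differences were tested with limma over all named genes, and a gene was called changed at a Benjamini-Hochberg adjusted p under 0.05. The median probe intensity of an array ranged from 129.0 to 170.5 at 24 hpf and from 35.5 to 170.6 at 36 hpf, where the lowest was that of MO replicate 2. At 36 hpf 65.9 to 70.7% of probes were well above background on the MO arrays and 72.8 to 80.4% on the MP arrays, against 80.4 to 82.5% on all arrays at 24 hpf. The 6 slides each held 1 MO and 1 MP array of a time point. All arrays of 36 hpf were scanned in a session of their own, so time point and scan session cannot be told apart. MO and MP stand throughout for arrays so labelled. Directions below follow the labels, with a negative change where the MO arrays were lower than the MP arrays. The study states the opposite direction for nearly all of the genes it lists as changed, among them aanat1 at 24 hpf and pax6a at 36 hpf. For the genes it also measured by qPCR in separate pools at 36 hpf, it reports the direction of its own ratios. Which of the labels and the stated ratios is exchanged was not tested. The mRNA of the receptor gene nr3c1 gives no check on a block of translation, and its log2 change was -0.098 (SE 0.13) at 24 hpf and 0.028 (SE 0.19) at 36 hpf, neither past the threshold.

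At 24 hpf all 8 genes that could be tested were changed, 7 of them lower and 1 higher in the MO arrays. Lower were atoh7, by 2.17 on the log2 scale, and vsx1, rx1, rx2, crx, otx5 and pax6a, by 1.84- to 1.26-fold. The gene that was higher was aanat1, by 2.18-fold. Of all 10353 genes tested at 24 hpf, 48.3% were called, 24% as lower and 24.3% as higher. The values of the MO and MP arrays did not overlap for any of the 8 members, with MO below in 7 and above in 1. The same held for 59.8% of all genes tested, with MO below in 30% of genes tested and above in 29.7%. The median log2 change of the 8 was -0.51, against 0.0070 over all genes. At 36 hpf atoh7 and vsx1 were called, both lower, and no other member was. There 6.37% of 9888 genes were called, 4.44% as lower and 1.93% as higher. The values did not overlap for 6 members, with MO below in 5 and above in 1, and for 29.3% of genes tested, with MO below in 15.1% and above in 14.1%. The median of the 8 was -0.34, against 0.032.

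**Figure D1:**
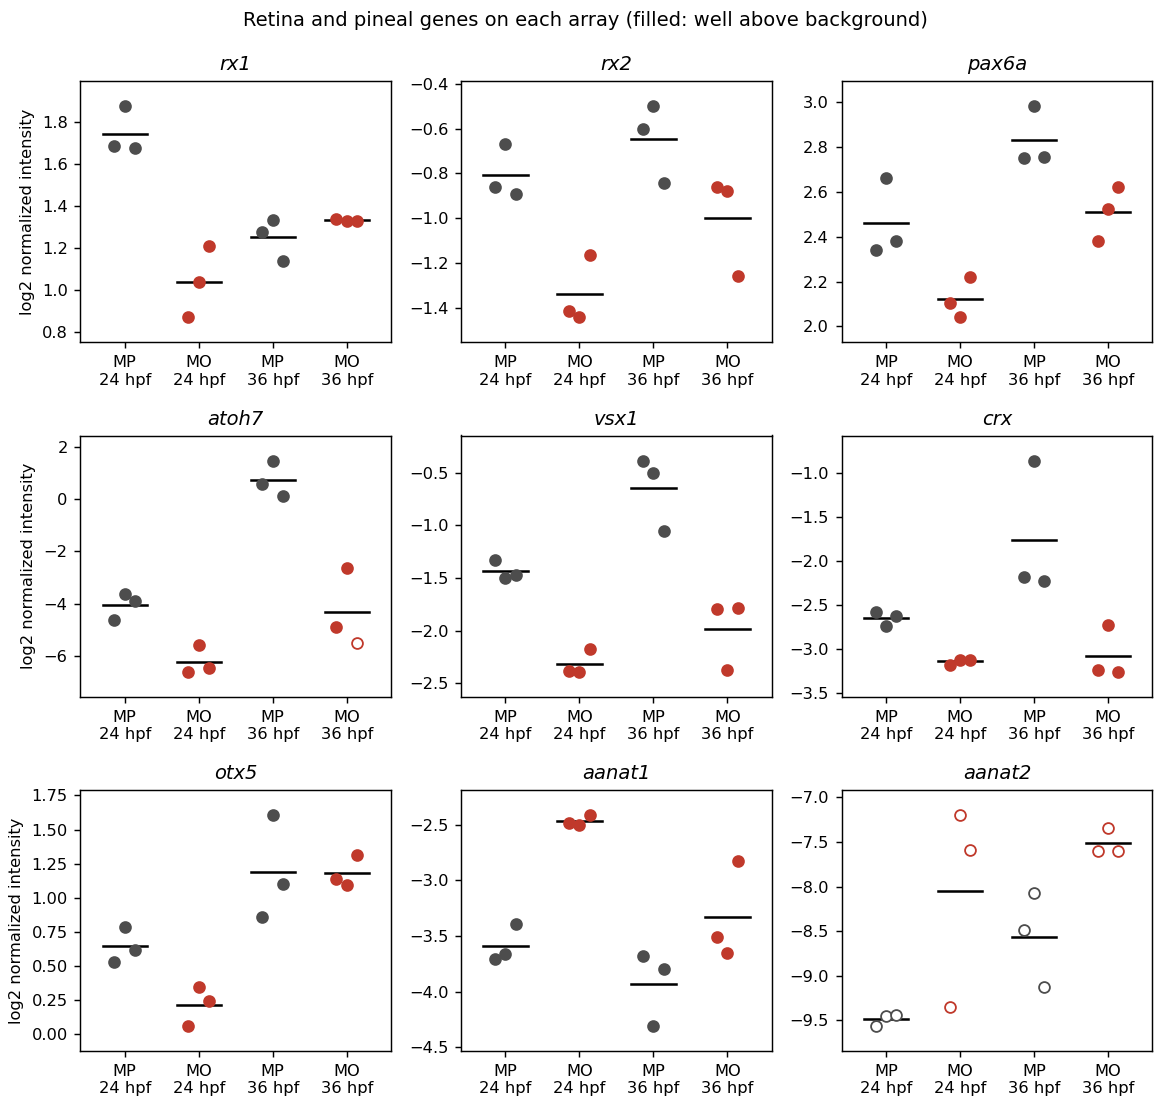
Log2 normalized intensity (y axis) of each gene on each of the 12 arrays, by group (x axis), with MP in grey, MO in red and a bar at the mean of 3 arrays. Open points were not well above background. The atoh7 values at 36 hpf lie from 0.12 to 1.47 on the MP arrays and from -5.50 to -2.63 on the MO arrays, and aanat1 at 24 hpf lies above its MP values on all 3 MO arrays.

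The eye field genes are described in the order of their use. The rx genes encode retinal homeobox factors, and in zebrafish rx1 and rx2 act in the optic cup after rx3 has set up the eye field. At 24 hpf rx1 read 0.87, 1.04 and 1.21 on the MO arrays and 1.68, 1.87 and 1.67 on the MP arrays. The groups were apart, and rx1 fell by 0.70 on the log2 scale (SE 0.11, adjusted p = 0.000999). The MO arrays of 36 hpf read 1.34, 1.33 and 1.33 and the MP arrays 1.28, 1.33 and 1.14. These overlapped, with rx1 at a difference of 0.081 (SE 0.17, adjusted p = 0.83). Between 24 and 36 hpf rx1 fell by 0.49 in the MP arrays (SE 0.12, adjusted p = 0.016, and 0.055 and 0.052 without replicate 1 or 3 of 24 hpf), while the change in the MO arrays was 0.29 (SE 0.15, adjusted p = 0.21). The difference between these changes, tested as an interaction of treatment with time, was 0.78 (SE 0.18, adjusted p = 0.056).

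The gene rx2 read -1.41, -1.44 and -1.17 on the MO arrays at 24 hpf and -0.86, -0.67 and -0.89 on the MP arrays. All MO values were lower, and rx2 fell by 0.53 (SE 0.12, adjusted p = 0.0065). By 36 hpf its readings were -0.86, -0.88 and -1.26 against -0.60, -0.50 and -0.84. The MO values again lay below the MP values, by a narrow gap, and the change of -0.35 (SE 0.23) did not pass the threshold (adjusted p = 0.41). No change of rx2 with time passed the test in either injection.

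The gene pax6a encodes a paired-box factor of the eye field that is also used in the hindbrain, spinal cord and pancreas, so its RNA here is not that of the eye alone. Its probe had intensities of 5740, 4862 and 6161 on the MO arrays at 24 hpf, and after scaling all of these lay below the MP values of 2.34, 2.66 and 2.38, the highest at 2.22. Its change, the smallest of the 8, was -0.34 (SE 0.11, adjusted p = 0.029), and without MO replicate 1 or MO replicate 2 it was no longer called (adjusted p = 0.078 and 0.094). The call of pax6a was also lost with the scan session as a block (-0.31, adjusted p = 0.063). Later, at 36 hpf, the MO arrays read 2.38, 2.52 and 2.62 and the MP arrays 2.75, 2.98 and 2.75. The difference of -0.32 (SE 0.17) was of about the size at 24 hpf, but it did not pass the threshold (adjusted p = 0.33). The rises of pax6a from 24 to 36 hpf were also not called, at 0.37 in the MP arrays (adjusted p = 0.063) and 0.39 in the MO arrays (adjusted p = 0.11).

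The proneural factor atoh7, which zebrafish need to make retinal ganglion cells, differed most. At 24 hpf its probe had intensities of 13.7, 24.2 and 14.8 on the MO arrays and 65.6, 113 and 83.4 on the MP arrays, or -6.61, -5.61 and -6.48 against -4.62, -3.65 and -3.92 after scaling. The MO arrays were all lower, and atoh7 fell by 2.17 (SE 0.34, adjusted p = 0.00087). The 36 hpf intensities were 37.8, 55.3 and 16.6 against 2628, 2188 and 1570, and the scaled values -4.89, -2.63 and -5.50 against 0.59, 1.47 and 0.12. The MP arrays were then bright, whereas on MO replicate 3 the probe was not well above background. By the fit atoh7 fell by 5.07 (SE 0.71, adjusted p = 0.013), a 33.5-fold difference in which the MO mean rests partly on that dim array. At 36 hpf the gene met the background requirement for testing only through the MP arrays, where it was high. The adjusted p was 0.058 without MP replicate 1 and 0.072 without MP replicate 2, and every change with an array left out lay between -5.92 and -4.48.

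The comparisons over time use the same arrays as those above. In the MP arrays 3 of the 8 members were called with time, atoh7 and vsx1 as higher and rx1 as lower, where 30.5% of 10302 genes were called, 14.4% as higher and 16.1% as lower. The values of the 2 time points did not overlap for 6 members, 5 of them above and 1 below at 36 hpf, and for 48.4% of genes tested, 21% above and 27.4% below. In the MO arrays 1 member was called, otx5 as higher, where 11.8% of 10212 genes were called, 6.04% as higher and 5.73% as lower. There 5 members did not overlap, 4 of them above and 1 below at 36 hpf, and 39.2% of genes tested did not, 17.6% above and 21.6% below.

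In the MP arrays atoh7 rose 27.6-fold from 24 to 36 hpf, by 4.79 on the log2 scale (SE 0.36, adjusted p = 8.1e-05). In the MO arrays the change was 1.89 (SE 0.74, adjusted p = 0.13). The interaction was -2.89 (SE 0.89, adjusted p = 0.14), and by limma it was called in none of the 8 genes, against 1.55% of 10391 genes (0.645% above 0 and 0.905% below). At an unadjusted p under 0.05 stood 2 of the 8 members (rx1 and atoh7) and 1580 of the 10391 genes. Without MO replicate 2, the dim array of 36 hpf, the interaction of atoh7 was -3.75 (adjusted p = 0.0027) and that of rx1 was 0.79 (adjusted p = 0.012), in a fit that called these 2 members and 15.6% of all genes. Set beside the MP arrays of 24 hpf, the MO arrays of 36 hpf overlapped for 5 members (rx2, pax6a, atoh7, crx and aanat1), lay below for rx1 and vsx1 and lay above for otx5. Of 10259 genes the same arrays did not overlap for 36.3%, with MO below in 20% and above in 16.3%.

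**Figure D2:**
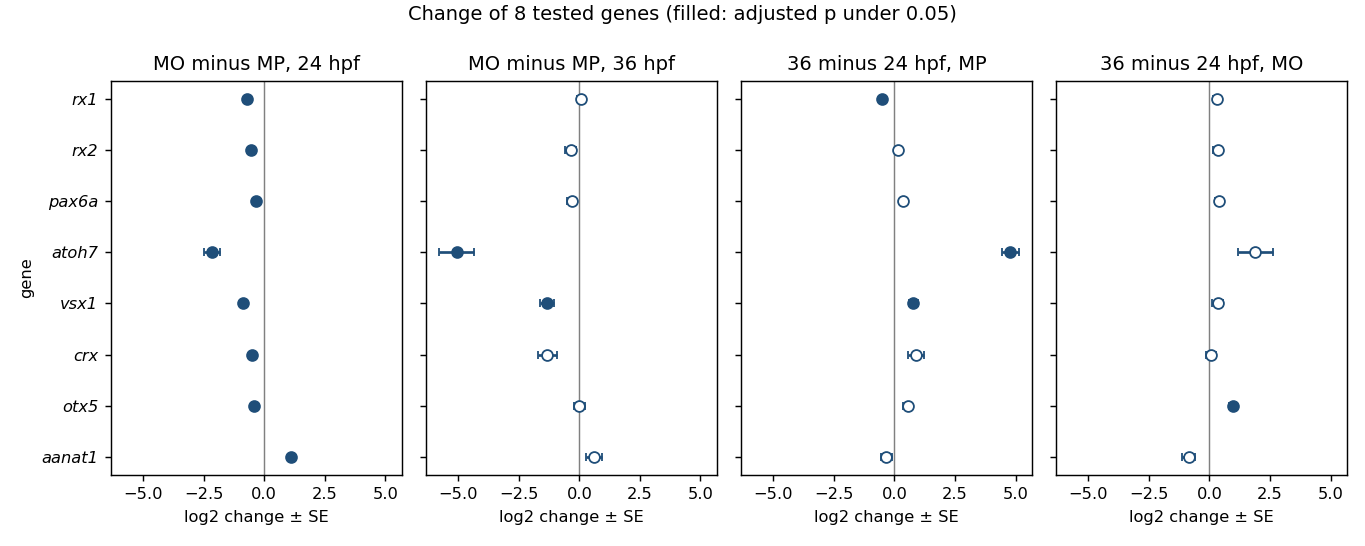
Log2 change with its standard error (x axis) of the 8 tested genes (y axis) in 4 comparisons, filled where the adjusted p is under 0.05. At 24 hpf 7 points lie below 0 and aanat1 lies above it, and atoh7 has the largest change at 36 hpf (-5.07) and with time in the MP arrays (4.79). Some error bars are shorter than the points are wide.

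The homeobox gene vsx1 is used by bipolar cells and their progenitors and by a class of spinal interneurons. It read -2.38, -2.39 and -2.18 on the MO arrays at 24 hpf and -1.33, -1.50 and -1.47 on the MP arrays. These did not overlap, and vsx1 fell by 0.88 (SE 0.12, adjusted p = 0.00042). Its values at 36 hpf were -1.79, -2.37 and -1.78 against -0.39, -0.51 and -1.05. The groups stayed apart, and vsx1 fell by 1.33 (SE 0.28, adjusted p = 0.037), a 2.52-fold difference. The call at 36 hpf was lost when any array but MO replicate 2 was left out, with adjusted p up to 0.15. In the MP arrays vsx1 rose by 0.79 from 24 to 36 hpf (SE 0.19, adjusted p = 0.017), and this call was lost without replicate 2 or 3 of 24 hpf (adjusted p = 0.054 and 0.064). In the MO arrays the change was 0.33 (SE 0.23, adjusted p = 0.35).

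The factors crx and otx5 are related Otx proteins of photoreceptors, and in zebrafish otx5 is known for its part in the circadian genes of the pineal organ. At 24 hpf crx read -3.18, -3.12 and -3.12 on the MO arrays and -2.59, -2.74 and -2.62 on the MP arrays. The groups were narrow and apart, and crx fell by 0.49 (SE 0.12, adjusted p = 0.0099). For 36 hpf the MO arrays read -3.24, -2.73 and -3.26 and the MP arrays -2.19, -0.86 and -2.23. All MO values were lower, but MP replicate 2 stood well above the other MP arrays, and the change of -1.32 (SE 0.41) was not called (adjusted p = 0.11). Without that array it was -0.87. From 24 to 36 hpf the change of crx was 0.89 in the MP arrays (adjusted p = 0.080) and 0.066 in the MO arrays (adjusted p = 0.86).

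For otx5 the values at 24 hpf were 0.06, 0.35 and 0.25 on the MO arrays and 0.53, 0.78 and 0.62 on the MP arrays. All MO values were lower, and otx5 fell by 0.43 (SE 0.11, adjusted p = 0.013). By 36 hpf the MO arrays read 1.14, 1.09 and 1.31 and the MP arrays 0.86, 1.61 and 1.10. These overlapped, with a change of -0.0076 (SE 0.23, adjusted p = 0.99). It was the only member called with time in the MO arrays, where it rose by 0.96 (SE 0.15, adjusted p = 0.018) although not under spike-in scaling, which gave -0.49, and in the MP arrays its change was 0.54 (adjusted p = 0.061). The call in the MO arrays held without MO replicate 1 or 2 of 36 hpf and was lost without each of the other 4 arrays (adjusted p up to 0.11). A dimmer probe of otx5 did not follow the one used. That probe had changes of 0.054 at 24 hpf and -1.24 at 36 hpf (adjusted p = 0.13 over all probes), and of -0.53 with time in the MO arrays.

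The 5 other genes with several probes showed 1 sign across them in both comparisons of MO with MP. For atoh7 the 2 probes changed by -2.17 and -0.89 at 24 hpf and by -5.07 and -4.77 at 36 hpf. The 3 probes of rx2 changed by -0.60 to -0.51 at 24 hpf. For pax6a the probe with the least change read -0.15 at 24 hpf.

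The enzyme gene aanat1 is the retinal form of the melatonin pathway in fish, and aanat2 is the pineal form. At 24 hpf aanat1 had intensities of 238, 209 and 247 on the MO arrays and 123, 112 and 119 on the MP arrays, or -2.49, -2.50 and -2.42 against -3.71, -3.66 and -3.40 after scaling. Every MO array was higher, and aanat1 rose by 1.12 (SE 0.14, adjusted p = 0.00025), a call that spike-in scaling ended (0.53, adjusted p = 0.19, with the median of all genes at -0.58). In the later pools, of 36 hpf, the MO arrays read -3.51, -3.66 and -2.83 and the MP arrays -3.68, -4.31 and -3.80. The MO values lay just above the MP values, and the change of 0.60 (SE 0.34) was not called (adjusted p = 0.35). With time aanat1 changed by -0.86 in the MO arrays (adjusted p = 0.074) and by -0.34 in the MP arrays (adjusted p = 0.30). On none of the 12 arrays was the probe of aanat2 well above background, with intensities of 1.81 to 8.02, so aanat2 was not tested and no fold is given.

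Each slide held an MO and an MP array, so the difference could be read within a slide. Where the values of the groups did not overlap, its sign within a slide or scan session was fixed beforehand. In those genes only its size is new, and the sign is no further evidence. On slide 2 the MO and MP arrays were scanned in different sessions. At 24 hpf the 7 genes that were lower had a difference below 0 on all 3 slides, from -2.97 to -0.98 for atoh7 and from -1.06 to -0.70 for vsx1, and aanat1 had a difference of 0.98 to 1.21. At 36 hpf 5 genes were below 0 on all 3 slides, with atoh7 at -6.36 to -3.21, vsx1 at -1.98 to -0.73, crx at -2.38 to -0.55, rx2 at -0.42 to -0.28 and pax6a at -0.60 to -0.13. The differences of aanat1 at 36 hpf ran from 0.022 to 0.97, and those of otx5 lay on both sides of 0. With the slide as a block, the count of members called stayed at 8 at 24 hpf (7 with the scan session as a block, without pax6a) and was 1 (atoh7) at 36 hpf, where vsx1 had an adjusted p of 0.11. Of all genes, 47.2% were called at 24 hpf with the slide as a block and 43.9% with the session, against 48.3%. At 36 hpf 1.54% were called with the slide as a block, against 6.37%. The MO and MP arrays of 24 hpf came from 2 scan sessions, and within each the difference of atoh7 was -1.42 and -2.83, and that of aanat1 1.25 and 1.04.

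**Figure D3:**
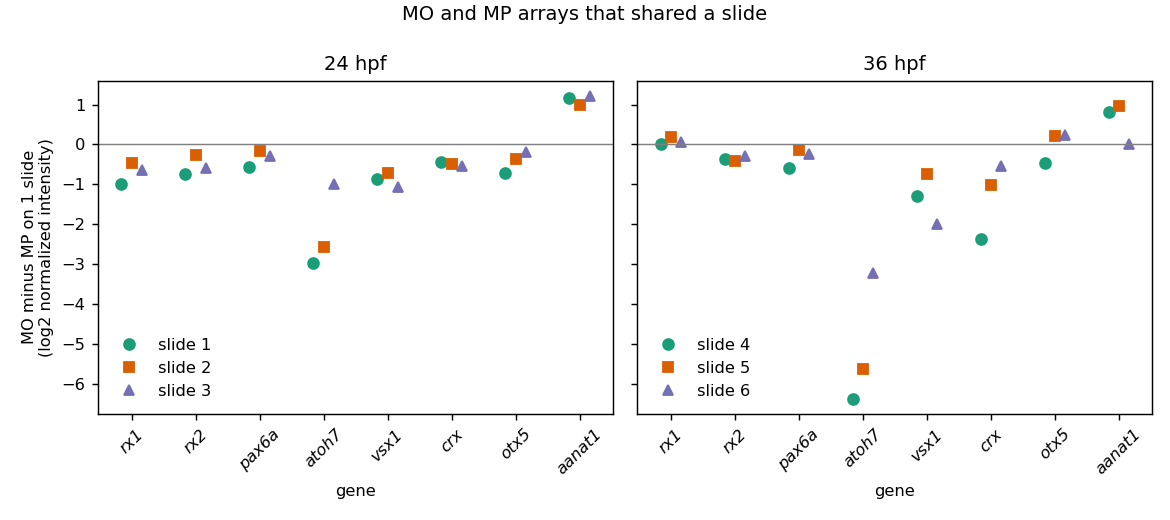
Difference between the MO and the MP array of a slide (y axis, log2 normalized intensity) for the 8 tested genes (x axis), with 3 slides at 24 hpf and 3 at 36 hpf. The 3 slides of 24 hpf agree in sign for every gene, as they must where the groups do not overlap. Those of 36 hpf spread from -6.36 to -3.21 for atoh7.

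Among themselves the members had different courses over the 12 arrays. Of the 7 members well above background on every array, which leaves out atoh7 and aanat2, and with each gene centred on its mean, the nearest pair was rx2 and pax6a, with a root mean square difference of 0.18, and the farthest was vsx1 and aanat1, with 1.17. The genes with the profile most like that of a member were searched among 9132 genes that were well above background on all 12 arrays. For rx2 these were the neural homeobox gene nkx2.2a (0.10), the POU factor gene pou3f3a (0.13) and the Wnt receptor gene fzd8a (0.14). For pax6a they were inpp4aa (0.088), ppp2r1bb (0.12) and the optic stalk gene vax1 (0.12), and for vsx1 csdc2a, dync1i1b and atat1 (0.12 to 0.14). The nearest to rx1 were cbr4 (0.11), znf592 and slc35a5, and the nearest to otx5 were cnksr1 (0.078), rexo1 and brd1b. The nearest to crx were plxna4 (0.25), a semaphorin receptor gene, the synaptic vesicle gene sypa and fgfbp2b, and the nearest to aanat1 were bik (0.16), cyp3c1 and igsf3l. These distances are descriptions over arrays that share groups, slides and scaling. They are not scaled to the spread of a gene, so genes that vary little lie near each other. The root mean square of a gene about its own mean was 0.27 for rx1 and pax6a and 0.29 for rx2. It was 0.44 for otx5, 0.59 for aanat1, 0.65 for crx and 0.66 for vsx1.

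Other genes of the eye and pineal organ were counted from lists. Of all genes tested, 48.3% were called at 24 hpf and 6.37% at 36 hpf, the shares to set beside each count below. Of 20 tested genes of the eye field and optic cup, 8 were higher and 7 lower in the MO arrays at 24 hpf, and the middle of their changes, as a median, was 0.086 against 0.0070 over all genes. The largest changes were those of mab21l1 (-1.53), rx3 (1.36) and the growth factor gene fgf8a (1.34). The eye field gene rx3 thus moved the opposite way from rx1 and rx2, with 1.53, 1.32 and 1.81 on the MO arrays and 0.22, 0.10 and 0.26 on the MP arrays. These are values of whole embryos, and the tissue that held the rx3 RNA was not measured. Under spike-in scaling rx3 kept its sign but was no longer called (0.77, adjusted p = 0.066). At 36 hpf 2 of the 20 genes were called, mab21l1 (-1.47) and the optic homeobox gene six6b (-1.39), and rx3 had a change of 0.64 (adjusted p = 0.46).

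Of 21 tested genes of retinal neurons, 15 were lower and 4 higher in the MO arrays at 24 hpf, with a median of -0.65. The largest changes were in ptf1a (-1.74), a factor of horizontal and amacrine cells that the cerebellum also uses, the neuronal RNA-binding protein gene elavl4 (-1.44) and the Iroquois gene irx4a (-1.39). At 36 hpf 8 of 20 were called, all lower, with a median of -0.71 against 0.032 over all genes. The largest there were ptf1a (-2.24), the horizontal cell factor lhx1a (-1.87) and irx4a (-1.76). The 4 genes that were higher at 24 hpf, named after their values were seen, were barhl1a (1.37), rbpms2b (1.10), tfap2a (0.53) and rbpms2a (0.47). Many genes of that list are used in the brain and spinal cord as well.

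Of 31 tested genes of photoreceptors and phototransduction, 5 were higher and 5 lower at 24 hpf, with a median of -0.0081. Over all genes, 24.3% were called higher and 24% lower. The count of 10 ranged from 3 to 13 over 23 settings. These included the transducin subunit gene gngt1 (-1.77, well above background on 2 of 3 MO arrays), prdm1a (1.69), which early muscle and neural crest also use, and the recoverin gene rcvrn2 (1.24). The call of gngt1 was kept in 2 of the 6 fits that left out an array and in 11 of 16 other settings. The transducin subunit genes gnat1 of rods (adjusted p = 0.0041) and gnat2 of cones (-0.82) also fell. They were named after their values were seen, from a list with as many genes called higher as lower. The photoreceptor factor gene otx2b had a change of -0.092 (adjusted p = 0.55). At 36 hpf 1 of 25 was higher and 4 were lower. The red cone opsin gene opn1lw2 was called lower (adjusted p = 0.0051), although it was not well above background on any MO array. Its level there was lower by at least 7.30-fold, a bound taken against the lowest signal well above background on each array. The adjusted p is that of the limma fit to the dim values and does not test the bound. It also leans towards a difference, since only the MP arrays, where the gene was high, admitted it to the test. Apart from fits that left out an array, the call was kept in 12 of 15 settings. With normexp background correction the change was -1.21. The cone arrestin gene arr3a fell by 2.97 (adjusted p = 0.025) and gngt1 fell by 2.11 (adjusted p = 0.044). The other genes called, named after their values were seen, were rlbp1b (-1.59), which binds retinaldehyde, and the cone phosphodiesterase gene pde6c, which rose by 1.07 (adjusted p = 0.039).

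Of 23 tested pineal genes, 7 were higher and 3 lower at 24 hpf, with a median of -0.056, where 24.3% of all genes were called higher and 24% lower. The largest changes belonged to gfi1aa (3.97), a factor also of blood cells and hair cells, noto (2.48), which marks the notochord and tailbud besides the pineal organ, and the axon receptor gene nrp1a (0.93). The pineal opsin gene exorh fell by 0.79 (adjusted p = 0.025), and the call was kept in 2 of the 6 fits that left out an array. It is on the photoreceptor list as well, as is tbx2b. At 36 hpf noto was the 1 gene called of 22 (2.42, adjusted p = 0.0496, lost without any array but MO replicate 2), and exorh had a change of -1.47 (adjusted p = 0.19), with 1 of 3 MO arrays well above background.

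**Figure D4:**
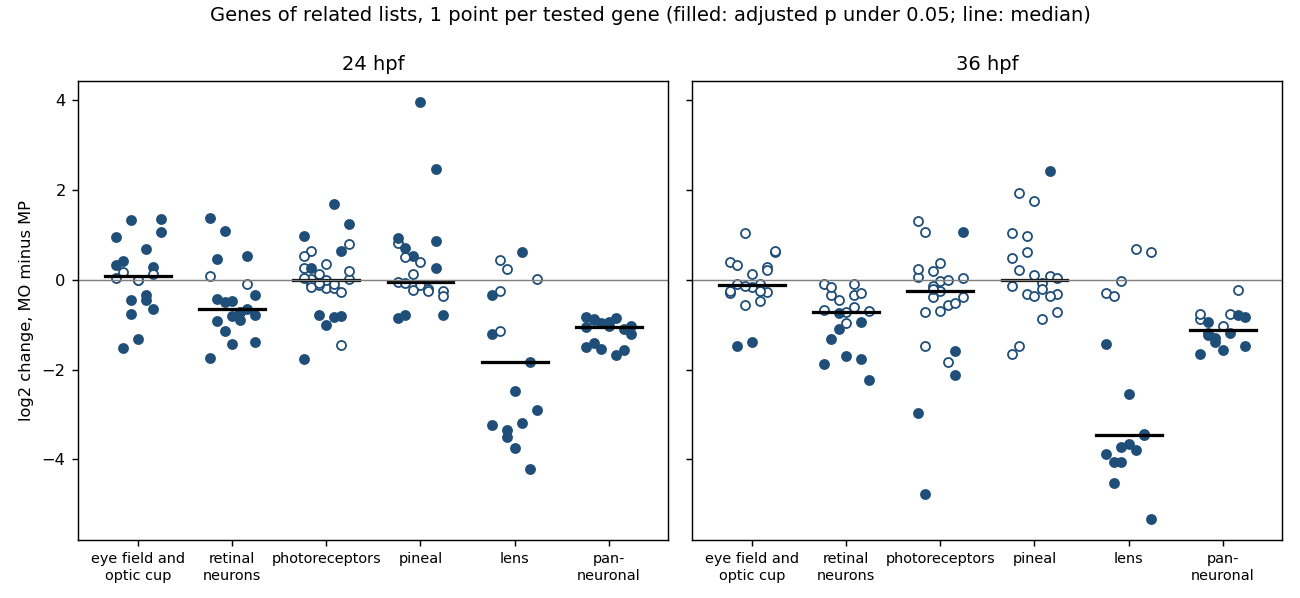
Log2 change of MO relative to MP (y axis) for each tested gene of 6 lists (x axis) at 24 and 36 hpf, filled where the adjusted p is under 0.05, with a line at the median of each list. The retinal neuron list has medians of -0.65 and -0.71, the lens list medians of -1.82 and -3.46 and the pan-neuronal list medians of -1.05 and -1.11, while the eye field, photoreceptor and pineal lists have genes on both sides of 0.

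The list counts at 36 hpf depended on single arrays and settings. So did the share of all genes called, at 6.37% with all arrays and 11.3% without MO replicate 2. That share was 0.769% without MO replicate 3, and 0.546%, 0.187% and 0.949% without MP replicates 1, 2 and 3 in turn. The count of 2 eye field genes ranged from 0 to 3 over 22 settings, and was 0 without MO replicate 3 or any 1 of the MP arrays. In place of 8 retinal neuron genes, 10 were called without MO replicate 2, and 0 without MO replicate 3, MP replicate 1 or MP replicate 2, and 3 without MP replicate 3. The 5 photoreceptor genes were 1 without each of MO replicate 3 and the 3 MP arrays in turn, and that gene was opn1lw2.

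Markers of neurons, lens and muscle were counted too, where 48.3% of all genes were called at 24 hpf and 6.37% at 36 hpf. Of 16 pan-neuronal genes, 16 were lower in the MO arrays at 24 hpf and 11 at 36 hpf, and their summed level was 51.6 to 53.0 in the MO arrays against 100.9 to 124 in the MP arrays at 24 hpf, and 70.4 to 127 against 160 to 201 at 36 hpf. The neuronal gene elavl3 fell by 0.84 at 24 hpf (adjusted p = 0.0018). Of 17 lens genes, 11 were lower and 1 higher at 24 hpf and 12 lower at 36 hpf, with sums of 14.0 to 18.4 against 25.6 to 29.0 and of 21.1 to 27.6 against 92.9 to 129. Of 20 muscle genes, 13 were lower and 3 higher at 24 hpf and 7 lower and 1 higher at 36 hpf, with sums of 413 to 498 against 671 to 846 at 24 hpf and of 537 to 968 against 1633 to 1799 at 36 hpf. The sums are of unlogged values, so the brightest genes of a list weigh most. In the pan-neuronal list that was tubb5, with log2 means at 24 hpf of 5.08 (MO) and 6.14 (MP). In the lens list it was mafba on the MO arrays of 24 hpf, with a log2 mean of 2.66. None of the genes on these 3 lists was below background on all 12 arrays. Their part in the changes of the retina and pineal genes was not tested.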

How the data were processed

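Total RNA of 12 embryo pools was hybridized by the authors to single-colour Agilent zebrafish arrays, and the deposited intensities are scanner output of Agilent Feature Extraction 10.5.1.1, background-corrected and not scaled between arrays. A deposited table of the authors' processed intensities, floored and scaled per chip per their methods, served as an alternative; its lowest value was 0.01, so the floor of 0.05 is not in it.

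Here values were floored at 0.05 (none lay below), outlier spots were dropped on their array, arrays were scaled to their median of 19114 probes, and log2 values of repeated spots were averaged. Accessions named 16770 of 43603 probes through RefSeq tables, of which 15772 probes of 10915 genes carry a gene name, and 3907 genes had several probes. Testing required a probe well above background throughout the 3 arrays of at least 1 group. A gene that met this in 1 group only, such as opn1lw2, was admitted by the group where it was high, which favours a difference. Fits used limma 3.58.1 (lmFit, eBayes with a trend) in R 4.3.3, on the arrays of the groups compared, or on all 12 for the interaction, with Benjamini-Hochberg adjustment. Figures used matplotlib 3.10.9. Scripts were tested on simulated data.

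The genes named were the members, nr3c1, up to 3 changed genes per list and comparison, the genes that define a list and the 3 genes nearest to each member. Some further list genes were named after their values were seen, tubb5 and mafba for their brightness, and tbx2b for standing on both lists. Members and lists were chosen with earlier results of these data known. Alternatives were the scaling to the 75th percentile or to spike-in spots, quantile normalization, normexp on median spot signals with an offset of 50, the floor after scaling, outlier spots kept, the authors' table, other filters and probe choices, no variance trend, a slide, session or replicate block, the methods' t-test, 1 fit of all arrays and each array left out. The number of arrays limits precision.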

Additional observations from a re-analysis of the deposited data

Results flagged for a closer look

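For 3 of 32 tested genes of the photoreceptor list the MO to MP difference changed between 24 and 36 hpf (limma interaction over all 12 arrays). That interaction was called for 1.55% of all genes. The members and the eye field, retinal neuron and pineal lists were searched as well, and none of their genes was called.

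The red cone opsin gene opn1lw2 had an interaction of -4.37 (SE 0.71, adjusted p = 0.011). The gene was admitted to the test only by the MP arrays of 36 hpf, where it was high. That adjusted p thus leans towards a difference and gives no support by itself. Its log2 values were -6.90, -7.99 and -8.93 on the MO arrays and -7.30, -7.50 and -7.79 on the MP arrays at 24 hpf, and -7.46, -7.52 and -7.64 against -1.94, -3.59 and -2.74 at 36 hpf. Outside the MP arrays of 36 hpf its probe was well above background on 2 arrays, so the size of the interaction rests on dim values, and with normexp background correction it was -1.29 (adjusted p = 0.25).

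The cone arrestin gene arr3a had an interaction of -3.23 (SE 0.66, adjusted p = 0.034), from 0.25 at 24 hpf (adjusted p = 0.49) to -2.97 at 36 hpf. The call was kept in 4 of the 12 fits that left out an array, with adjusted p up to 0.11, the highest over these.

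The retinaldehyde-binding protein gene rlbp1b, of glia and pigment epithelium, had an interaction of -1.72 (SE 0.28, adjusted p = 0.012). It read -1.64, -1.75 and -1.29 on the MO arrays and -1.57, -1.88 and -1.62 on the MP arrays at 24 hpf, and -1.26, -1.12 and -1.45 against 0.68, 0.091 and 0.16 at 36 hpf. All 12 fits that left out an array kept the call.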

How the results depend on the processing

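At 24 hpf no member changed direction in 184 refits of single members, 171 of which also kept the call. Several settings change the test and leave the estimate as it was, so the direction could not change in them. No setting used a dimmer probe alone, and that of otx5 had a change of 0.054 at 24 hpf. Members called numbered 8 (48.3% of all genes), and 7 to 8 with an array left out (40.2 to 48.8%). They numbered 5 in 1 fit of all 12 arrays (21.3%). The call of pax6a there was lost with the session as a block (adjusted p = 0.063), by the methods' t-test (0.087), with no variance trend (0.051), with the floor after scaling (0.058) and in 1 fit of all arrays (0.089). With the floor set after scaling atoh7 at 24 hpf was -0.36 (adjusted p = 0.18), since its scaled values lay mostly under that floor, and the mean of both probes of otx5 gave -0.19 (adjusted p = 0.14). At 36 hpf the 2 members called (6.37% of all genes) were 1 with spike-in scaling (1.52%) and with the floor after scaling (2.54%). They were also 1 with the filter that asks for signal well above background on every array (5.31%). The same held with the slide as a block (1.54%) and with the replicate block (2.34%). By the methods' t-test they were 0 (2 of all genes). With an array left out they were 0 to 2, 0 without MP replicate 1 (0.546%) or 2 (0.187%). All genes called at 36 hpf were 19 without MP replicate 2 and 1120 without MO replicate 2, against 630. For 36 against 24 hpf the 3 members called in the MP arrays (30.5% of all genes) were 1 with spike-in scaling (0.447%). They were 5 with the authors' table (28.4%) and 5 with the replicate block (30.4%). With an array left out they were 1 to 5, 1 without replicate 3 of 24 hpf (17.3%) and 5 without replicate 1 of 36 hpf (30.3%). The 1 in the MO arrays (11.8% of all genes) was 0 with the mean of probes (10.9%) and 0 with the replicate block (1.76%). It was 3 in 1 fit of all arrays (25.1%) and 0 to 4 with an array left out, 4 without replicate 2 of 36 hpf (49.7%). The interaction count of 0 (1.55% of all genes) was 1 with spike-in scaling (0.818%), normexp (1.01%) or the replicate block (1.13%). It was 2 with the floor after scaling (2.64%) and 0 to 2 with an array left out, 2 without MO replicate 2 of 36 hpf (15.6%).

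Spike-in scaling moved the median change of all genes to -0.58 at 24 hpf, -1.53 at 36 hpf, -0.55 with time in MP, -1.53 with time in MO and -0.96 for the interaction. Signs under it are relative to the spike-in spots and include that shift of all genes. The changes that reversed under it at 36 hpf were rx1 (-1.48), aanat1 (-0.96), nr3c1 (-1.53), rcvrn2 (-1.37) and rx3 (-0.92), with time in MP rx2 (-0.33) and pax6a (-0.12), and with time in MO rx1 (-1.16), rx2 (-1.11), vsx1 (-1.12), pax6a (-1.07), crx (-1.39) and otx5 (-0.49). For the interaction they were rx1 (-0.18), rx2 (-0.79), pax6a (-0.95) and otx5 (-0.55). Calls at 24 hpf that were lost under it were aanat1 (0.53, adjusted p = 0.19), nrp1a (0.34, 0.43), rcvrn2 (0.65, 0.11), rx3 (0.77, 0.066) and fgf8a (0.75, 0.070). Other reversals follow. At 36 hpf otx5 was 0.0052 with the 75th percentile and 0.014, 0.036 and 0.20 without MO replicate 1, MO replicate 2 or MP replicate 2 (range -0.17 to 0.20). There exorh was 0.31 with normexp, which moved the median of all genes to 0.14, and nr3c1 was -0.00052 with the authors' table, -0.044 with the mean of probes, and -0.032 and -0.0020 without MO replicate 2 or MP replicate 1 (range -0.032 to 0.070). For rcvrn2 at 36 hpf the change was -0.54 without MO replicate 2 and -0.019 without MP replicate 2 (range -0.54 to 0.68), and otx2b at 24 hpf was 0.038 without MP replicate 2 (range -0.17 to 0.038). In the MO arrays with time, crx was -0.11 without MO replicate 2 of 36 hpf (range -0.11 to 0.16). The interaction of pax6a was -0.00024 with quantile normalization, -0.015 with normexp, -0.0070 with the scan session as a block and -0.081 to -0.018 without 5 of the 12 arrays in turn (range -0.081 to 0.095), and that of otx5 was -0.44 with the mean of probes. The cause was not tested.

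Whether replicate numbers pair the samples could not be decided. Same-numbered arrays had deviations that correlated at -0.17, -0.052 and -0.017 at 24 hpf and at 0.15, 0.084 and -0.26 at 36 hpf. Arrays of different numbers correlated at -0.11 to 0.19 at 24 hpf and at -0.23 to 0.14 at 36 hpf. Deviations from a group mean cancel within the group, which ties these correlations together, so they neither show nor exclude pairing. Counts with the replicate block stand above. Slide and session blocks could not be fitted where a block held 1 array or 1 group. Dim signal limits atoh7, exorh and aanat2.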

Other observations

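With time, the retinal neuron list rose in the MP arrays, with 13 of 21 tested genes higher and none lower at 36 against 24 hpf (14.4% of all genes were higher). The largest rises were those of irx4a (1.73), lhx1a (1.59) and the ganglion cell RNA-binding protein gene rbpms2b (1.47). In the MO arrays 5 of 20 were higher and none lower (6.04% of all genes were higher), led by elavl4 (1.76), irx4a (1.36) and sox11a (1.28). Of the photoreceptor list 9 of 32 genes were higher and 3 lower in the MP arrays, among them opn1lw2 (4.77, well above background on 1 of 3 arrays at 24 hpf), arr3a (3.52) and the transducin subunit gene gnb3b (2.07). In the MO arrays 1 of 28 was called, the arrestin gene saga (adjusted p = 0.024 by the limma fit). It was not well above background on any MO array at 24 hpf, and it was tested only through the arrays of 36 hpf, where it was high. Its level was at least 7.09-fold higher at 36 hpf, a bound that the adjusted p does not test. In RNA of whole embryos rx3 fell by 0.64 with time in the MP arrays (adjusted p = 0.024).

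In the table of the authors' processed intensities, the columns of MP replicates 2 and 3 at 24 hpf follow the scanner values of replicates 3 and 2.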
